A study of Mus musculus with 4 samples.

Results

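Dendritic cells expressing Cd209a were picked from single-cell RNA libraries of mouse inguinal fat. They numbered 214 among the 15721 cells kept after filtering. A cell was a member if it held at least 2 UMIs (counted RNA molecules) of Cd209a and at least 20 of Cd74 and H2-Ab1 together. It also had to hold no UMI of Cd3e, Cd3d, Cd3g or Cd79a, under 2 of Lyz1 and Ear2 together and under 2 of Folr2 and Cd209f together. Its UMIs of C1qa, C1qb and C1qc had to stay below 10 per 10000. These 14 genes set the selection, so their levels are given below as a description, with no test. The same holds for any comparison of the members with all other cells.

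The cells came from the stromal vascular fraction, the part of fat tissue left without mature adipocytes, of the fourth inguinal white depot of C57BL/6 mice aged 8 weeks. Mice had been held at 4 °C for 24 h in the cold group (2 libraries) or at room temperature in the RT group (2 libraries). No genotype, transgene or drug distinguished the groups in the labels. The labels do not say whether a library came from 1 animal or from several. The spread that the p-values rest on is therefore that between libraries, which may be technical. The sex of the mice and the temperature of the room were not given in the sources used here.

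Conventional dendritic cells take up antigen, load peptides on MHC class II molecules and present them to T cells. They depend on the receptor Flt3. The type 2 lineage (cDC2) primes mainly CD4+ T cells and carries C-type lectin receptors, among them Cd209a, a mouse relative of the human lectin DC-SIGN, and the galactose-binding lectins Mgl2 and Clec10a. Type 1 cells (cDC1) express Xcr1 and Clec9a, and dendritic cells that leave the tissue for the lymph node switch on Ccr7 and Fscn1. Plasmacytoid dendritic cells, which produce type I interferon, express Siglech.

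The members were 29 and 20 cells in cold replicates 1 and 2, against 95 and 70 cells in RT replicates 1 and 2. Their summed counts were 256616 and 165484 UMIs in cold, against 656846 and 544668 UMIs in RT. The whole libraries held 35198164 to 55160902 UMIs, and 5 to 10 barcodes occurred in both libraries of any pair, with none shared between members. The median member had 6686 to 8749 UMIs and 1982 to 2271 genes per library, and 2.30% to 2.53% mitochondrial UMIs. Cold thus rested on 49 cells and RT on 165, which limits the cold values most.

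The label was checked against marker genes, given as CPM, the UMIs of a gene scaled to a common total of all UMIs in the summed cells. Flt3 lay between 157 and 182 CPM in all libraries, 32.4-fold above the mean of all other kept cells. Its mean was 167 CPM in members and a similar 152 CPM in Cd209a-negative dendritic cells. That class held no UMI of Cd209a or Cd79b and met the other limits of the rule. It was picked by UMIs of Xcr1, Clec9a, Ccr7 or Fscn1. Flt3 was seen in 59.0% to 70.0% of members, against at most 3.58% of T cells, which should lack it. T cells had median depths of 4752 to 8146 UMIs. Ccr2, a chemokine receptor of blood-derived cells, was seen in 85.7% to 93.1% of members and at most 20.3% of T cells. Clec10a was at 690 to 780 CPM and Mgl2 at 350 to 717 CPM, but macrophages also carried both, at means of 1567 and 610 CPM. Tnip3, an inhibitor of NF-kB signalling, averaged 657 CPM in members, 29.9 CPM in macrophages and 71.4 CPM in Cd209a-negative dendritic cells.

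Several markers of other myeloid and lymphoid cells were low or at 0, and others were not. Xcr1 and Fscn1 reached at most 1.84 CPM in members. Their means in Cd209a-negative dendritic cells were 97.2 and 499 CPM, but both genes helped to pick that class, so this contrast was set in advance. Each of the 10 macrophage markers averaged lower in members than in macrophages, Apoe at 68.1 CPM against 23666 CPM. Mrc1, Cd163 and Cd68 were still seen in 30% to 62.1%, 15% to 62.1% and 65.5% to 70% of members. In T cells they reached at most 18.8%, 9.42% and 16.4%. The mast cell markers Cpa3, Mcpt4, Ms4a2 and Fcer1a, the neutrophil genes S100a8 and Retnlg, the monocyte gene Chil3 and the lymphocyte genes Klrb1c and Gzma were at 0 in every library. Of the 7 monocyte markers, in contrast, only Chil3 was at 0. The monocyte list summed to 1204 and 2242 CPM in cold, against 2392 and 2662 CPM in RT, above all other kept cells of the same library each time. Part of that sum lay in the 2 kinds of cell described below. Cells with plasmacytoid genes held 86.0% to 100% of Ly6c2 UMIs and 31.3% to 80% of Plac8 UMIs per library, but 0.885% to 8.74% for Ccr2. Members with RNA of other types held 69.0% of the Fn1 UMIs in RT.

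Ms4a4c averaged 295 CPM in members, against 24.99 CPM in all other kept cells, and was seen in 51.7% to 65% of members and 17.9% to 31.1% of T cells. Cd14, a co-receptor for bacterial lipopolysaccharide, averaged 330 CPM in members and 441 CPM in macrophages. Il1rl1, the receptor of interleukin 33, averaged 70.3 CPM in members and 9.30 CPM in all other kept cells. Clec9a averaged 15.4 CPM and Il4i1, listed for migratory cells, 33.1 CPM in members. Both were higher in Cd209a-negative dendritic cells, at 127 and 300 CPM, though Clec9a was among the genes that picked that class. Of the 12 cDC2 markers, Klf4, Cd1d1 and Ltb averaged below all other kept cells, and the rest of the list above them. Klf4 was at 375 CPM in members and 424 CPM in all other kept cells. Cd1d1, Ltb and Ccl17 were lower in members than in Cd209a-negative dendritic cells, Il1r2 was alike, and the others were higher. Flt3 went with conventional dendritic cells, Cd209a-negative ones included. The macrophage genes lay below macrophages, and the cDC2 and monocyte lists were mixed. The 2 kinds of cell described next stood apart.

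**Figure D1:**
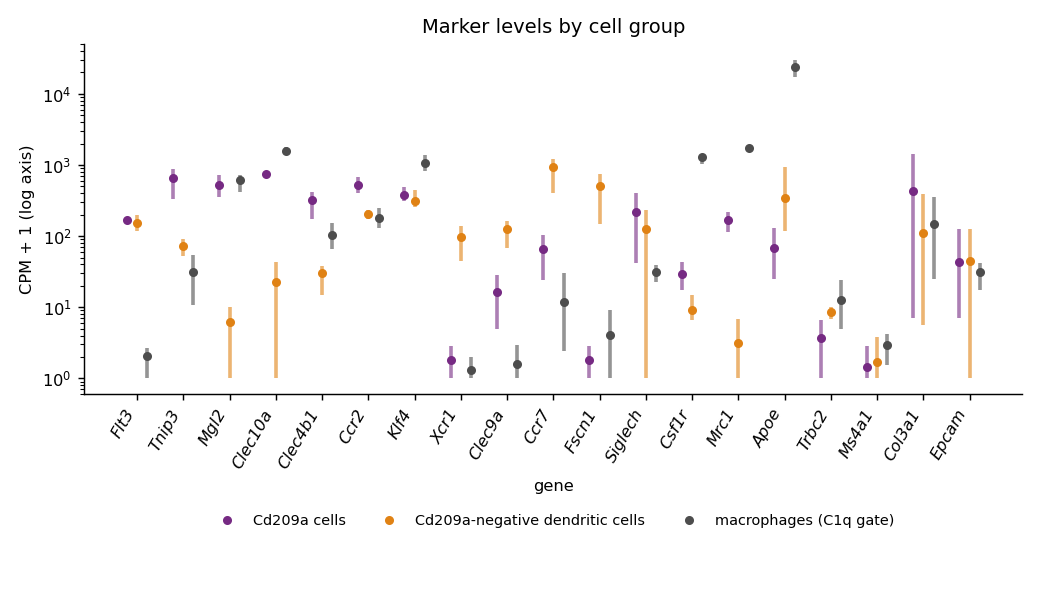
Levels of marker genes in the Cd209a cells, in Cd209a-negative dendritic cells and in macrophages (CPM + 1, log axis); the point is the mean of 4 libraries and the line spans the lowest to the highest library. Flt3 and Tnip3 are high in the Cd209a cells and low in macrophages. Xcr1, Ccr7 and Fscn1 are highest in the Cd209a-negative dendritic cells, which were picked by these genes and Clec9a.

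The first exception was a set of cells with plasmacytoid genes. Counting Siglech, Ccr9, Klk1 and Cox6a2, the members with at least 2 UMIs were 3 and 4 in cold, against 5 and 10 in RT. That is 10.3% and 20% of members in cold and 5.26% and 14.3% in RT, so the groups overlapped. All but 1 of the Siglech UMIs of members lay in these 22 cells, at 2784 and 2071 CPM in cold against 843 and 1319 CPM in RT. Since these 4 genes picked the cells, genes outside the pick are more telling about what else they carried.

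Irf8, a transcription factor of plasmacytoid and type 1 dendritic cells, was at 2479 and 1946 CPM in these cells in cold and 437 and 1413 CPM in RT. In the other members it was at 29.96 and 157 CPM in cold and 24.0 and 8.50 CPM in RT. Ly6c2, Bst2, Plac8 and Cd7 were likewise higher in the cells with plasmacytoid genes in each of the 4 libraries. So was the lectin Cd209d, at 348 and 1255 CPM in cold and 1343 and 2099 CPM in RT, against 103 to 217 CPM in the other members.

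Mgl2 went the other way in 3 of 4 libraries, and Il1b in all 4. Il1b, an inflammatory cytokine, had no UMI in the cells with plasmacytoid genes in cold and 3 and 1 UMIs in RT. Their Cd209a level was 348 and 1600 CPM in cold and 531 and 901 CPM in RT, against 1228 and 1429 CPM in cold and 1512 and 1624 CPM in RT in the other members. It was lower than in the other members in 3 of 4 libraries and higher in cold replicate 2. The 25 cells with 1 Cd209a UMI that met every other condition held 1068 CPM of Siglech and the 17 members with exactly 2 held 859 CPM, whereas the 159 members with 5 or more held 71.9 CPM. Clec10a ran in the opposite order, at 321, 379 and 818 CPM.

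The second exception was 8 members with over 20 UMIs per 10000 of epithelial, fibroblast and endothelial markers, 2 in cold replicate 1 and 6 in RT. In cold these were 1 cell led by epithelial markers, at 63.1 per 10000, and 1 led by endothelial markers, at 27.1 per 10000. In RT replicate 1, 4 cells carried fibroblast markers at 55.6 to 588 per 10000. In RT replicate 2, 1 cell carried them at 293 per 10000, and 1 cell had endothelial markers at 103.5 per 10000. Doublet scoring removed 1 and 0 members in cold, against 3 and 1 in RT.

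**Figure D2:**
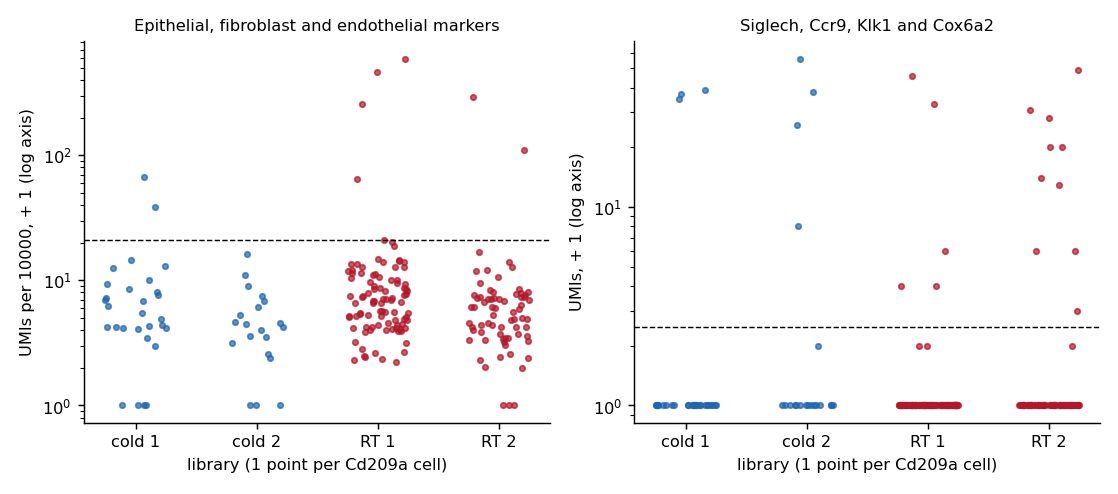
Each point is 1 Cd209a cell, by library; left, UMIs of epithelial, fibroblast and endothelial markers per 10000 (+ 1, log axis) with the limit of 20 dashed, and right, UMIs of Siglech, Ccr9, Klk1 and Cox6a2 (+ 1, log axis) with the limit of 2 dashed between 1 and 2 UMIs. The 6 RT cells above the limit on the left reach 590 per 10000, and 22 cells over the 4 libraries lie above the limit on the right.

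The Cd209a cells formed a smaller share of the kept cells in both cold libraries. They were 0.714% (95% exact Clopper-Pearson interval 0.479 to 1.02%) and 0.657% (0.402 to 1.01%) in cold replicates 1 and 2. In RT replicates 1 and 2 they were 1.74% (1.41 to 2.12%) and 2.23% (1.74 to 2.81%). Means were 0.685% ± 0.041 in cold and 1.98% ± 0.347 in RT (SD, n = 2 each), a log2 ratio of -1.53. The 2 groups did not overlap, and the exact two-sided permutation test gave p = 0.333, the smallest value that 2 against 2 libraries allow. Intervals cover counting error only. Fewer of these cells in the tissue and fewer recovered cells cannot be told apart in a share.

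The gap depended on what the cells were counted against. Among cells with Ptprc, the pan-leukocyte gene, the share was 1.35% and 1.11% in cold, against 3.14% and 3.21% in RT. Among all MHC class II cells without lymphocyte genes it was 7.47% and 7.87% in cold, against 9.39% and 12.3% in RT, a log2 ratio of -0.50. That ratio was nearer to 0 than the one over all kept cells. Macrophages, taken here as cells with at least 30 C1q UMIs per 10000 and no Cd3 or Cd79a UMI, were also a smaller share in cold.

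Macrophages made up 11.1% and 7.59% of kept cells in cold, against 22.3% and 16.3% in RT. Per 100 macrophages there were 6.46 and 8.66 Cd209a cells in cold, against 7.80 and 13.6 in RT, and the groups overlapped (exact permutation p = 0.667). Cd209a-negative dendritic cells were 0.345% and 0.854% of kept cells in cold, against 0.731% and 1.14% in RT, also with overlap. They numbered 14 in cold replicate 1, under the 20 cells set as a minimum, so their cold response was not compared with that of the Cd209a cells.

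**Figure D3:**
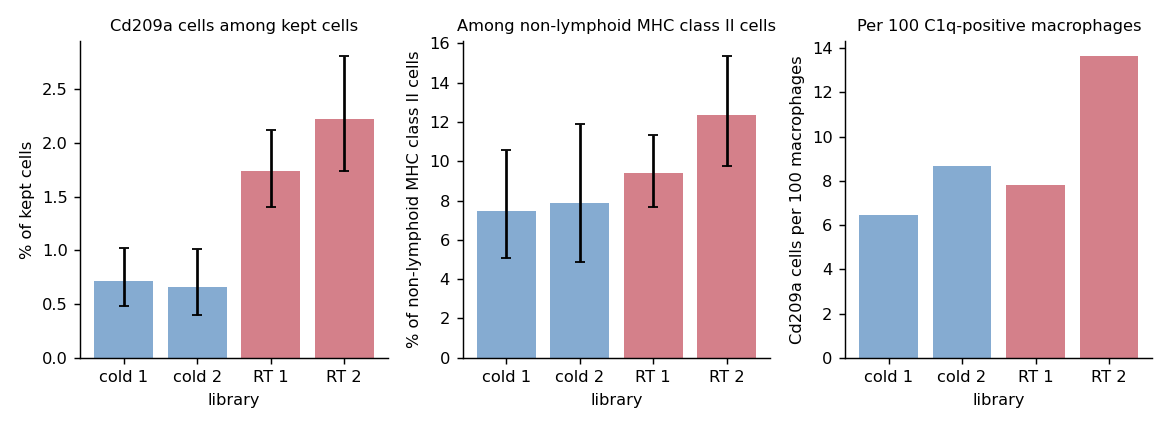
Cd209a cells in each library as a percentage of kept cells (left) and of non-lymphoid MHC class II cells (middle), with 95% Clopper-Pearson intervals, and as a number per 100 macrophages (right). Both cold libraries lie below both RT libraries on the left, at 0.714% and 0.657% against 1.74% and 2.23%, while on the right cold replicate 2 lies above RT replicate 1.

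Which genes differed in the Cd209a cells after cold was tested on summed counts per library with edgeR's quasi-likelihood test and Benjamini-Hochberg adjustment at 0.05 (FDR). Of 4541 genes tested, 62 passed (1.37%), 26 higher in cold (0.573%) and 36 lower in cold (0.793%), and 509 had an unadjusted p under 0.05. The median log2 fold change over all genes tested was 0.01. The rises included 4 heat shock chaperones and 4 immediate early transcription factors, and the falls included 5 of the 6 fibroblast markers. Leaving out the 29 cells of the 2 exceptional kinds gave 30 genes of 3729 tested (0.805%), 23 up (0.617%) and 7 down (0.188%). Of these, 21 were among the 26 rises and 4 among the 36 falls. This setting was added after the data had been seen.

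Hspa1a, Hspa1b, Hsp90aa1, Jun, Atf3 and Rgs1 rose, and each of them passed with all members and in each of the 17 alternative settings run.

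Hspa1a and Hspa1b encode the inducible HSP70 chaperones, which bind unfolded proteins under stress and are switched on by the heat shock factor Hsf1. Hspa1a lies at chr17:34969190-34972156 and Hspa1b at chr17:34956436-34959238, both on the minus strand of GRCm38. They are nearly identical copies, so the counting could split their reads, and their separate levels are uncertain. The 250 bases before each gene's start are shown because both genes moved together and because the windows show how alike the copies are. They are RefSeq windows on GRCm38.p6, chr17:34972157-34972406 for Hspa1a and chr17:34959239-34959488 for Hspa1b, minus strand, written 5′ to 3′. Capitals mark the motif GAANNTTC, a pair of inverted heat shock units.
Hspa1a: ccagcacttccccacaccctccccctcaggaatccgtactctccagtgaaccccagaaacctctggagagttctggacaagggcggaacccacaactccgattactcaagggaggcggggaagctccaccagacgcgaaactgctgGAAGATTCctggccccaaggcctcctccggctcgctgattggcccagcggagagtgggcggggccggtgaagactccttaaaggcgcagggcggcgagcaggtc
Hspa1b: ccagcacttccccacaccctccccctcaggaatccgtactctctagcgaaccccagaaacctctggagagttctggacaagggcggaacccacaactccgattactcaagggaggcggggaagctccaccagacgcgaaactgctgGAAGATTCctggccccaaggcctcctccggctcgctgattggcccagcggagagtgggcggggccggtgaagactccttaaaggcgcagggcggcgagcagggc

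The windows were identical at 247 of 250 bases, and the motif began 104 bases before the start in each. GAANNTTC reads the same on both strands, as does TTCNNGAA. Either was present in 4218 of 32851 promoter windows of the table (12.8%), and in 7 of the 11 heat shock chaperone genes that the table holds. A match describes letters only.

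Hspa1a had 3433 and 3281 CPM in cold, against 452 and 457 CPM in RT. Both cold libraries stood more than 7-fold above both RT libraries, with no overlap. The log2 fold change was 2.93 ± 0.13 (SE, FDR 1.0e-07), and 2.73 to 3.02 over the alternatives. The signal was spread over cells: the cell with most Hspa1a held 10.8% and 13.8% of its UMIs in cold, against 11.1% and 21.7% in RT. Hspa1b had 756 and 1299 CPM in cold, against 167 and 129 CPM in RT (log2 fold change 2.82 ± 0.27, FDR 0.00027). The cold libraries differed from each other more for Hspa1b than for Hspa1a, and both stayed above RT.

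Hsp90aa1, the inducible HSP90 chaperone, had 1637 and 1916 CPM in cold, against 709 and 720 CPM in RT (1.36 ± 0.15, FDR 0.00071). Dnajb1, an HSP40 partner of HSP70, had 238 and 520 CPM in cold, against 107 and 108 CPM in RT (1.83 ± 0.34, FDR 0.021). Both genes separated the groups, but Dnajb1 rested more on cold replicate 2: without that library the log2 fold change was 1.16 and the FDR 0.135.

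Of the 12 heat shock chaperones tested, 4 rose and none fell, with a median log2 fold change of 0.68 against 0.01 for all genes. Both cold libraries were above both RT libraries for 10 of the 12, whereas 18.1% of all genes showed that order. Those that did not pass included Hsph1 at 81.8 and 54.4 CPM in cold against 24.4 and 20.2 CPM in RT, and Hspa8, the constitutive HSP70, at 3121 and 3003 CPM in cold against 2660 and 2914 CPM in RT. Hspa5, the chaperone of the endoplasmic reticulum, had 538 and 665 CPM in cold against 627 and 667 CPM in RT. Ubb, a gene of ubiquitin named after its values were seen, had 2997 and 2888 CPM in cold, against 2011 and 1966 CPM in RT (0.61 ± 0.11, FDR 0.018). Ubb did not pass without cold replicate 1, cold replicate 2 or RT replicate 2 (0.56 to 0.61, FDR 0.064 to 0.107).

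Jun, a subunit of the transcription factor AP-1, had 1808 and 2169 CPM in cold, against 454 and 397 CPM in RT. The groups were far apart, and the log2 fold change was 2.27 ± 0.16 (FDR 1.8e-05), with 2.10 to 2.49 over the alternatives. Atf3, a stress-induced factor that can pair with Jun, had 1461 and 1088 CPM in cold, against 585 and 549 CPM in RT (1.22 ± 0.18, FDR 0.0052). Fos, the partner of Jun in AP-1, had 1356 and 1632 CPM in cold, against 935 and 938 CPM in RT (0.72 ± 0.15, FDR 0.039). Fos passed in 8 of the 17 alternatives, and not without cold replicate 2 (0.55, FDR 0.203), RT replicate 1 (0.71, FDR 0.164) or RT replicate 2 (0.68, FDR 0.180).

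Klf2, a Krüppel-like factor that restrains inflammatory activation of myeloid cells, had 850 and 483 CPM in cold, against 256 and 279 CPM in RT (1.38 ± 0.26, FDR 0.021). Without cold replicate 1 it was 0.88 and did not pass (FDR 0.100). In the same list of immediate early factors Nr4a2, an orphan nuclear receptor, fell to 97.4 and 133 CPM in cold, against 279 and 391 CPM in RT (-1.51 ± 0.29, FDR 0.024). It did not pass without cold replicate 1, cold replicate 2 or RT replicate 2 (-1.75 to -1.29, FDR 0.091 to 0.105). So 4 of the 20 factors tested rose and 1 fell, with a median of 0.34. Nr4a3, a close relative of Nr4a2 that takes part in dendritic cell migration, had 89.6 and 175 CPM in cold, against 326 and 345 CPM in RT (-1.35 ± 0.30, FDR 0.053). It passed once the 29 exceptional cells were left out (-1.44 ± 0.28, FDR 0.017). Nr4a1, the third member of the family, had 620 and 846 CPM in cold, against 612 and 676 CPM in RT, and did not pass (0.22 ± 0.20, FDR 0.745).

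Rgs1, which dampens signalling of G protein-coupled chemokine receptors, had 436 and 858 CPM in cold, against 110 and 147 CPM in RT (2.36 ± 0.31, FDR 0.0027). Both cold libraries were above both RT libraries, with a spread of about 2-fold within cold. Rgs1 was the only one of 12 adrenergic and cAMP response genes tested to pass, and the list's median was 0.16.

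**Figure D4:**
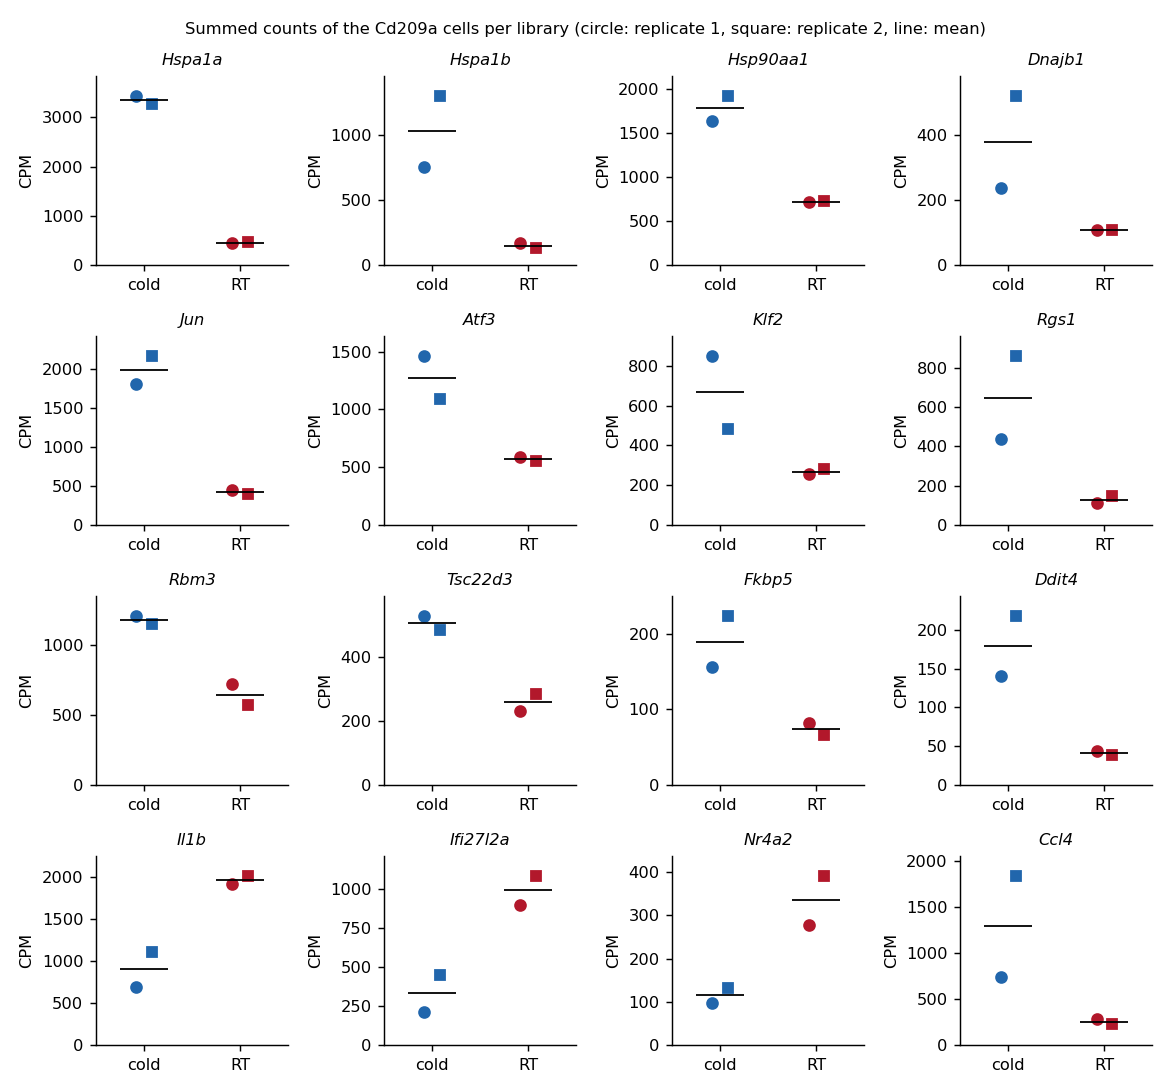
Levels of 16 genes (CPM of summed Cd209a cells, linear axes from 0) in the cold libraries (left, blue) and the RT libraries (right, red), with the mean as a line. For each of the 16 genes both cold libraries lie on the same side of both RT libraries, an order that most of them needed in order to be named. Il1b, Ifi27l2a and Nr4a2 are lower in cold.

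Genes of the glucocorticoid response were examined since glucocorticoids are stress hormones. Ddit4, an inhibitor of the growth regulator mTORC1, had 140 and 218 CPM in cold, against 44.2 and 38.6 CPM in RT (2.11 ± 0.32, FDR 0.0061). Tsc22d3, the gene of the glucocorticoid-induced leucine zipper, had 526 and 483 CPM in cold, against 231 and 283 CPM in RT (1.02 ± 0.22, FDR 0.041). Fkbp5, a co-chaperone of the glucocorticoid receptor, had 156 and 224 CPM in cold, against 82.2 and 66.1 CPM in RT (1.36 ± 0.29, FDR 0.048).

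These 3 of the 18 tested rose and none fell, with a median of 0.26. Ddit4 passed in 15 of 17 alternatives, Fkbp5 in 8 and Tsc22d3 in 6, so the last 2 stood close to the threshold. Ddit4 did not pass without cold replicate 2 (1.77, FDR 0.095), Fkbp5 without cold replicate 2, RT replicate 1 or RT replicate 2 (FDR 0.117 to 0.285), and Tsc22d3 without any 1 of the 4 libraries (FDR 0.091 to 0.438). Per1 had 70.1 and 127 CPM in cold, against 67.0 and 99.1 CPM in RT, and did not pass (0.24 ± 0.35, FDR 0.878). Dbp and Pdk4 were below 5 CPM in every library and were not tested.

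Rbm3, a cold-inducible RNA-binding protein, had 1204 and 1148 CPM in cold, against 719 and 567 CPM in RT (0.91 ± 0.17, FDR 0.023). It passed in 12 of 17 alternatives and was lost when cold replicate 1, cold replicate 2 or RT replicate 2 was left out (0.72 to 0.92, FDR 0.068 to 0.245). Its relative Cirbp had 129 and 157 CPM in cold, against 67.0 and 80.8 CPM in RT. That difference was of like size (0.98 ± 0.28) but did not pass (FDR 0.155). Of 5 such genes tested, Rbm3 alone passed, and the list's median was 0.49. Both cold libraries were above both RT libraries for 3 of the 5, an order that 18.1% of all genes showed.

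The chemokines split by cell. Ccl4, an inflammatory chemokine, had 744 and 1837 CPM in cold, against 282 and 228 CPM in RT (2.37 ± 0.33, FDR 0.0043). In cold, however, 146 of 191 and 291 of 304 Ccl4 UMIs lay in the 3 and 4 cells with plasmacytoid genes. In RT those cells held 68 of 185 and 35 of 124 UMIs.

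The cells with plasmacytoid genes had 6351 and 9132 CPM of Ccl4 in cold, against 2124 and 471 CPM in RT, in 7 cold cells and 15 RT cells. The remaining members had 193 and 97.3 CPM in cold, against 187 and 189 CPM in RT, and there the groups overlapped. Without the cells with plasmacytoid genes the log2 fold change of Ccl4 was -0.26 (FDR 0.82). The rise of Ccl4 was not seen in the other members. Cox6a2 and Dntt, which also passed as higher in cold (FDR 0.048 and 0.0495), had all their UMIs in the same cells. Cox6a2 was 1 of the 4 genes that picked those cells. Cox6a2 passed in 5 of 15 alternatives and Dntt in 3 of 12.

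Ccl17, a chemokine that draws Ccr4-bearing T cells, had 74.0 and 72.5 CPM in cold, against 13.7 and 22.03 CPM in RT (2.09 ± 0.42, FDR 0.032). The 2 groups did not overlap, but Ccl17 was seen in 6 and 5 cells in cold and 4 and 4 cells in RT, and 1 cell held 50% to 75% of it in each library. It passed in 8 of 16 alternatives, and not without cold replicate 1, cold replicate 2 or RT replicate 1 (1.76 to 2.08, FDR 0.106 to 0.171). In all, 2 of 9 chemokines tested rose, with a median of 0.40. Slc12a2, an ion transporter, also passed, but 1 cell of cold replicate 1 held 86% of that library's UMIs, and without the cells with RNA of other types it did not pass (1.19, FDR 0.541). Gda, guanine deaminase, had 183 and 199 CPM in cold, against 85.3 and 64.3 CPM in RT (1.38 ± 0.28, FDR 0.032), and did not pass when any 1 library was left out (1.17 to 1.61, FDR 0.064 to 0.314).

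Among the falls, those that lay in the dendritic cells themselves were few. Il1b fell to 690 and 1112 CPM in cold, against 1918 and 2014 CPM in RT. The groups did not overlap, and the log2 fold change was -1.09 ± 0.19 (FDR 0.015). Lower values in cold were not limited to the Cd209a cells. Cd209a-negative dendritic cells had 464 and 188 CPM of Il1b in cold, against 856 and 848 CPM in RT. All other kept cells had 33.8 and 46.1 CPM in cold, against 127 and 197 CPM in RT. Neither of these was tested. Il1b is made as a precursor and cut by the inflammasome before release.

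Fewer members carried Il1b in cold. At least 1 UMI was found in 8 of 29 and 7 of 20 members in cold, against 58 of 95 and 42 of 70 in RT. With each cell thinned to 3000 UMIs, and 27, 20, 87 and 67 members deep enough, the shares were 25.9% and 35% in cold, against 56.3% and 49.3% in RT. In T cells, which should lack the gene, they were 1.41% and 4.51% in cold, against 5.68% and 8.12% in RT. Within the members that carried it, Il1b stood at 2165 and 3462 CPM in cold, against 3052 and 2981 CPM in RT, with overlap. Il1b lost its call without the cells with plasmacytoid genes (-1.002, FDR 0.072) and kept it when the cells with RNA of other types were also left out (-1.01 ± 0.19, FDR 0.017).

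Ifi27l2a, an interferon-stimulated gene named after its values were seen, had 214 and 447 CPM in cold, against 900 and 1083 CPM in RT (-1.57 ± 0.28, FDR 0.016). It passed in 16 of 17 alternatives. The 14 tested genes of the interferon list, which does not hold Ifi27l2a, had no call and a median of -0.19. Marcks, an actin-binding substrate of protein kinase C, had 273 and 145 CPM in cold, against 547 and 613 CPM in RT (-1.39 ± 0.27, FDR 0.024), and did not pass without cold replicate 2 (-1.07, FDR 0.111). It was the only call among 16 cytoskeleton and adhesion genes.

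Most other falls were carried by RT cells with fibroblast RNA. Of the 36 falls, 30 had over 50% of their RT UMIs in the 6 exceptional RT cells, and none of those 30 passed once the 8 cells with RNA of other types were left out. Col3a1, a collagen, had 3 and 1 UMIs in cold, against 928 and 151 UMIs in RT, and Dcn, the proteoglycan decorin, had 5 and 1 UMIs in cold, against 541 and 159 UMIs in RT. For both genes over 90% of RT UMIs (93.7% and 93.0%) were in those 6 cells.

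The same held for Igfbp6, Col1a2, Clec3b and Mfap5, at 90.6% to 94.3%. Fstl1, Fbn1, Pcolce2, Htra3, Ly6c1 and Cd248 had no UMI in either cold library and 42.6 to 116 CPM in RT replicate 1, of which the 6 cells held 84.9% to 96.8% over both RT libraries. The 6 fibroblast markers summed to 397 and 230 CPM in cold, against 4391 and 1595 CPM in RT, and 5 of them were called lower. Leaving out the 8 cells with RNA of other types gave 24 genes of 4207 (0.570%), 21 up (0.499%) and 3 down (0.0713%), and the falls were Ifi27l2a, Nr4a2 and Il1b. Whether those RT cells were doublets was not tested beyond the doublet scores above.

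The antigen presentation machinery gave no call. Of 11 MHC class II and peptide loading genes tested, outside those in the rule, none passed and the median log2 fold change was -0.23. Both cold libraries were below both RT libraries for 7 of the 11, where 24.1% of all genes had that order. H2-Aa, the alpha chain of I-A, had 10693 and 10938 CPM in cold, against 13117 and 13434 CPM in RT (-0.25 ± 0.06, FDR 0.093). Ctss, the protease that trims the invariant chain, had 662 and 804 CPM in cold, against 1012 and 968 CPM in RT (-0.39 ± 0.17, FDR 0.400). The rule genes had 27368 and 24728 CPM of Cd74 in cold against 28707 and 30944 CPM in RT, and 10970 and 10545 CPM of H2-Ab1 in cold against 12922 and 12867 CPM in RT. Cd209a itself had 1150 and 1462 CPM in cold against 1465 and 1526 CPM in RT.

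None of 12 MHC class I genes, 7 costimulatory genes, 10 C-type lectins, 17 dendritic cell transcription factors, 18 NF-kB genes or 5 pattern recognition genes passed, with medians of -0.18, -0.28, -0.31, -0.25, -0.46 and -1.02. Without the 29 exceptional cells, 1 costimulatory gene rose, Tnfsf9, a ligand of the tumour necrosis factor family (0.91 ± 0.19, FDR 0.033), and 1 of the transcription factors fell, Nr4a3, given above. In the pattern recognition list Tlr2, the receptor of bacterial lipoproteins, had 15.6 and 24.2 CPM in cold, against 74.6 and 60.6 CPM in RT (-1.78 ± 0.46, FDR 0.096). Tnip3 had 596 and 326 CPM in cold, against 839 and 868 CPM in RT (-0.82 ± 0.24, FDR 0.159). Neither overlapped between groups, with cold lower as for 24.1% of all genes, and neither passed.

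The lineage genes lay closer together. Flt3 had 164 and 157 CPM in cold, against 164 and 182 CPM in RT (-0.06 ± 0.26, FDR 0.971), and Clec10a had 756 and 780 CPM in cold, against 760 and 690 CPM in RT (0.13 ± 0.17, FDR 0.865). Mgl2 had 717 and 350 CPM in cold, against 419 and 593 CPM in RT (0.15 ± 0.29, FDR 0.916). Klf4, a factor needed by part of the cDC2, had 382 and 496 CPM in cold, against 311 and 312 CPM in RT (0.53 ± 0.22, FDR 0.379).

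Irf4, the cDC2 factor, had 39.0 and 54.4 CPM in cold, against 77.6 and 84.5 CPM in RT (-0.79 ± 0.35, FDR 0.422). Zbtb46, a factor of conventional dendritic cells, had 27.3 and 12.1 CPM in cold, against 33.5 and 44.1 CPM in RT (-0.81 ± 0.52, FDR 0.625). Ccr7 had 23.4 and 42.3 CPM in cold, against 102 and 93.6 CPM in RT (-1.61 ± 0.39, FDR 0.070). These 3 were lower in both cold libraries without passing the test, an order that 24.1% of all genes had. Zbtb46 rested on 7 and 2 UMIs in cold, against 22 and 24 UMIs in RT.

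Of the remaining lists, 14 cytokine and cytokine receptor genes held 1 fall, Il1b, with a median of -0.23. Tnf, an inflammatory cytokine, had 253 and 236 CPM in cold, against 140 and 103 CPM in RT (1.05 ± 0.27, FDR 0.091). Cxcl2, a neutrophil chemokine, had 42.9 and 127 CPM in cold, against 422 and 64.3 CPM in RT, with overlap (-1.60 ± 0.74, FDR 0.448). The 20 oxidative phosphorylation genes had a median of 0.00, the 12 glycolysis and hypoxia genes 0.11, the 14 cell cycle genes 0.46, the 11 lipid handling genes -0.77 and the 3 circadian genes that could be tested 0.24, all without a call. The same was true of 15 lysosomal genes, 11 genes of the unfolded protein response, 10 chemokine and migration receptors and 5 growth factor receptors, with medians of -0.18, 0.26, -0.07 and 0.15. Without the 29 exceptional cells 1 lysosomal gene fell, Psap, the precursor of the saposins (-0.65 ± 0.13, FDR 0.020).

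Macrophages of the same libraries served to ask whether the response differed between these myeloid cells. On their own, 21 of 10434 genes passed in macrophages (0.201%), 5 up (0.0479%) and 16 down (0.153%). The difference of the cold effect, Cd209a cells minus macrophages, was tested in 1 model with the library as a block. It passed for 58 of 9110 genes (0.637%), with a higher effect in the Cd209a cells for 24 (0.263%) and a lower one for 34 (0.373%), and 680 had an unadjusted p under 0.05. Without the 29 exceptional cells it passed for 41 genes, 25 higher and 16 lower.

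Tnf and Ccl2 were ordered in opposite ways in the 2 cell types. Tnf in macrophages was at 46.1 and 47.3 CPM in cold, against 128 and 92.4 CPM in RT, below RT where the Cd209a cells were above it. The difference was 2.24 ± 0.31 on the log2 scale (FDR 0.00027), and 2.14 to 2.30 over 8 alternatives, in all of which it passed. By itself Tnf did not pass in macrophages (FDR 0.057) or in the Cd209a cells (FDR 0.091). In cold 17 and 8 Cd209a cells held Tnf, and 1 cell held 18.5% and 48.7% of its UMIs. Ccl2, a ligand of Ccr2, had 254 and 354 CPM in macrophages in cold, against 870 and 759 CPM in RT.

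In the Cd209a cells Ccl2 had 101.3 and 78.6 CPM in cold, against 36.5 and 20.2 CPM in RT (1.70 ± 0.40, FDR 0.060). The difference between the cell types was 3.14 ± 0.39 (FDR 6.4e-05), and it passed in all 8 alternatives. Only 3 and 3 Cd209a cells held Ccl2 in cold, against 15 and 6 in RT, and 1 cell held 46.2% and 84.6% of it in the cold libraries. Without the 29 exceptional cells Ccl2 passed in the Cd209a cells (1.90 ± 0.37, FDR 0.019).

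The cold effect on Hspa1a and Jun was larger in the Cd209a cells than in macrophages. Cd209a-negative dendritic cells were also higher in cold for both genes. They had 1972 and 2011 CPM of Hspa1a in cold, against 195 and 125 CPM in RT. For Jun they had 994 and 1566 CPM in cold, against 301 and 91.4 CPM in RT. Whether their rise differed from that of the Cd209a cells was not tested. Hspa1a in macrophages had 1866 and 2053 CPM in cold, against 795 and 515 CPM in RT (1.58, FDR 0.0503), and the difference from the Cd209a cells was 1.27 ± 0.21 (FDR 0.0020). For Jun the macrophages had 2375 and 2569 CPM in cold, against 1536 and 1008 CPM in RT (0.96, FDR 0.125), and the difference was 1.23 ± 0.20 (FDR 0.0015). Both cell types stood at similar cold levels of Jun, and the Cd209a cells had the lower RT level. Without RT replicate 1 the difference was 0.92 for Hspa1a (FDR 0.119) and 1.00 for Jun (FDR 0.069). Jun also lost the call without cold replicate 2 (1.06, FDR 0.053).

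Ppp1r15a, a phosphatase subunit that ends the integrated stress response, had 417 and 556 CPM in the Cd209a cells in cold, against 236 and 314 CPM in RT. In macrophages it had 206 and 200 CPM in cold, against 335 and 386 CPM in RT, so the groups were ordered in opposite ways. The difference was 1.63 ± 0.26 (FDR 0.0015), and it did not pass without cold replicate 2 (1.32, FDR 0.078).

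Ddit4 was the reverse case. Macrophages had 175 and 137 CPM in cold, against 8.28 and 8.13 CPM in RT (4.26, FDR 0.00052), and the difference was -2.20 ± 0.41 (FDR 0.0058). The cold levels of both cell types were alike in range, and the RT level was higher in the Cd209a cells. Without cold replicate 1 or RT replicate 1 the difference did not pass, with an FDR of at most 0.085. Ccl4 differed by 2.83 ± 0.30 (FDR 7.7e-06) with all members and by 0.31 (FDR 0.937) without the cells with plasmacytoid genes. Tsc22d3, Rbm3 and Il1b had differences of 0.12, 0.23 and -0.58 that did not pass (FDR 0.702 to 0.965).

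**Figure D5:**
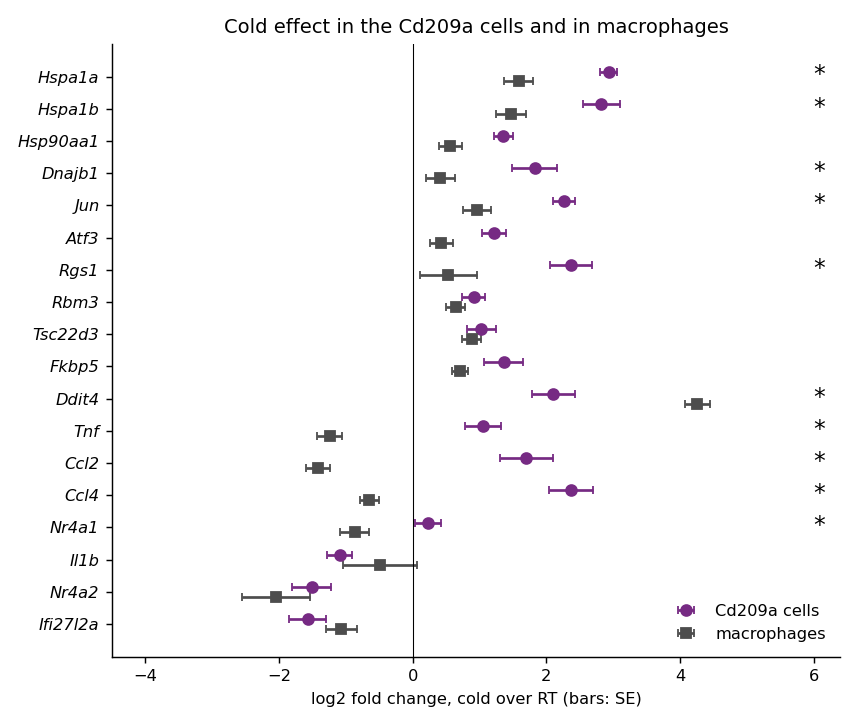
Log2 fold change of cold over RT (bars: SE) for 18 genes in the Cd209a cells (purple circles) and in macrophages (grey squares); an asterisk marks genes whose difference between the cell types passed at an FDR of 0.05. Tnf and Ccl2 lie right of 0 in the Cd209a cells and left of it in macrophages, and Ddit4 lies further right in macrophages, at 4.26 against 2.11.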

How the data were processed

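The deposited files hold raw UMI counts per gene (31053 genes) and barcode for 4 libraries made with 10x 3′ v3 chemistry. The authors ran Cell Ranger, version 3.0.2 in the file headers and in the submitters' processing notes, which also list mm10, GRCm38 and Seurat. Barcodes were kept from 500 genes upward if mitochondrial UMIs made up less than 15%. Scrublet (scanpy 1.11.5, Python 3.11.15) scored doublets, which stayed in except in an alternative that removed 0.8% per 1000 cells. Member counts were summed by library and tested with edgeR 4.0.16 in R 4.3.3 (filterByExpr, TMM, two-sided quasi-likelihood F-test, no covariate). Alternatives were RLE scaling, DESeq2 1.42.0, a fit of genes at any count, a replicate block, other limits of the rule, looser cell filters, members thinned to 3000 UMIs, and fits on 3 of the 4 libraries, in which the single library of a group was taken to have the spread of the other group. Leaving out cells with plasmacytoid genes, alone or with the cells carrying RNA of other types, was added after the data were seen.

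The members, the markers and the 25 gene lists were chosen with earlier results of these data known, and no list is independent support of its direction. Named genes are the 12 largest calls each way whose groups did not overlap and whose mean reached 20 CPM, up to 4 calls per list, the 5 calls each way with the smallest p in the comparison with macrophages, and a few genes fixed by name. Genes of the ribosome and mitochondrial genome and predicted genes are not named. Fos, Ubb, Ifi27l2a, Ccl2, Nr4a3, Tnfsf9, Psap, Ms4a4c, Cd14, Il1rl1, Il4i1, Hsph1, Hspa8, Hspa5, Tlr2, H2-Aa, Ctss, Siglech, Bst2, Gsn, Irf8, Cd209d, Ly6c2, Plac8 and Cd7 were named after their values were seen. So were Cd1d1, Ltb, Il1r2, Mrc1, Cd163, Cd68, Fn1, Itgax, Kmo, Dpp4 and Ccnd1. On simulated counts for 4541 genes, edgeR recovered 68.1% of 4-fold and 3.33% of 2-fold changes and called 2 unchanged genes. The simulation gave every gene the same dispersion and held no single cells that dominate a gene, so these rates need not hold for the real counts. Some results are not reported here.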

Additional observations from a re-analysis of the deposited data

Results flagged for a closer look

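These 10 results of the Cd209a cells stood out because the cold effect differed from that in macrophages by a test of the difference itself, each with an FDR under 0.05. The differences, Cd209a cells minus macrophages on the log2 scale, were 3.14 for Ccl2, 2.83 for Ccl4, 2.24 for Tnf, 1.63 for Ppp1r15a and 1.23 for Jun. They were -2.26 for Timp2, -3.69 for Col1a2, -4.04 for Col3a1, -4.49 for Dcn and -5.22 for Rnase4. The 5 negative ones did not pass once the cells with plasmacytoid genes and those with RNA of other types were left out. Ccl4 did not pass without the cells with plasmacytoid genes, while Ccl2 and Tnf passed in all 8 alternatives run. Rnase4 had 1 and 0 UMIs in the Cd209a cells in cold, against 94 and 21 UMIs in RT.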

How the results depend on the processing

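The count of 62 genes changed in the Cd209a cells was 33 with DESeq2, 228 with no low-count filter, 29 with doublets removed, 24 without cells with RNA of other types, 23 at 4 or more Cd209a UMIs, 33 at 100 or more UMIs of Cd74 and H2-Ab1, 10 with members thinned to 3000 UMIs, where fewer genes could be tested, and 30 without cells of both kinds. Without 1 library it was 29 to 88, with 29 without cold replicate 2. The replicate block gave 61 genes, and the same-numbered libraries deviated with a correlation of -0.0016 over 4541 genes. Counting error in sums of few cells weakens such a correlation, so it cannot tell whether the numbers pair the libraries. The count of 58 genes that differed from macrophages was 109 with no low-count filter, 36 without cells with plasmacytoid genes, and 31 to 77 without 1 library, with 31 without cold replicate 2.

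The share kept its direction in every setting run, at log2 ratios of -1.61 to -0.50, and -1.70 to -1.34 without 1 library. The reversed values were Ccl4, at -0.26 without cells with plasmacytoid genes and -0.24 without cells of both kinds, and Gsn, at 0.0116 with doublets removed and 0.00896 without cells with RNA of other types, against -1.58 with all members. These follow from the cells left out; other causes were not tested. The comparison with Cd209a-negative dendritic cells was not run, as cold replicate 1 held 14 of them. Depth limits the cold values, which rest on 49 cells, and few 2-fold changes could be called in the simulation.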
